A study of Homo sapiens and Mus musculus with 20 samples.

Results

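After inhibition of topoisomerase I or II, Satb1 ChIP-seq peaks appeared at places where the untreated cells had none in their peak list, and a share of these places was found with both drugs. The sites described here are the peaks of the ICRF-193 list that shared at least 1 bp with a peak of the camptothecin list and with no peak of the untreated list. They were 4605 of the 37350 ICRF-193 peaks. They were chosen by the presence or absence of peak calls in these 3 lists: 61.4% of all ICRF-193 peaks overlapped the camptothecin list and 56.7% the untreated list. Of the remaining ICRF-193 peaks, 18323 were in all 3 lists, 11583 were in neither other list, and 2839 were in the untreated list only. A further 1198 camptothecin peaks were in neither other list.

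The lists came from MCF10A, a human mammary epithelial line without native Satb1 that was made to express Satb1 as an inducible eGFP fusion, and chromatin was pulled down with an antibody to GFP. Full-length Satb1 was profiled in untreated cells and after 2 h of camptothecin, a topoisomerase I inhibitor, or ICRF-193, a topoisomerase II inhibitor. Untreated cells expressing ∆HD (Satb1 without its homeodomain) or N-C1 (the N-terminal domain with CUT1) gave 1 list each, as did ATAC-seq of native cells and of cells expressing Satb1. Each condition had a single peak list, so there was no replicate error to compare with, and no test was run. The construct lists and both ATAC-seq lists come from cells without drug. They were not used to choose the sites, and they say nothing of these sites during treatment.

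The source and extraction labels of the untreated, ∆HD and N-C1 libraries share one wording and those of the drug and ATAC-seq libraries share another, so drug and set of libraries cannot be told apart. The read depth of each list is unknown, and a site missing from a list may still carry signal below the peak threshold. Shares are given with exact 95% Clopper-Pearson intervals and means with 95% intervals across sites. Both cover counting error only, and neighbouring sites are not independent.

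Satb1 is a chromatin organizer best known from thymocytes. It binds A/T rich DNA through CUT domains and a homeodomain and forms multimers through its N-terminal domain. Topoisomerases relieve the torsion that transcription and replication put into DNA, and A/T rich stretches are those that open most readily under negative torsion. Camptothecin traps topoisomerase I on DNA, whereas ICRF-193 blocks topoisomerase II in a closed clamp form.

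The DNA of the sites differed in character, as 9 of them show. All are 150 bp at the peak summit, on the plus strand of hg19 and read from GRCh37, with exact matches to the Satb1 consensus YTAWTAR in capitals (C or T, then TA, A or T, TA, and A or G; read on the opposite strand it gives the same pattern). The first 4 were among the 5 sites with the largest ICRF-193 fold enrichment. The deposited fold enrichment is the pileup of a peak over its local background.
ANXA10 side, chr4:168709039-168709188: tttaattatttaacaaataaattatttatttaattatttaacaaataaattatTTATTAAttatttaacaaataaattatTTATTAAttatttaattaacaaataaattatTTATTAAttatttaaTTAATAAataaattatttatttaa
CELF2 side, chr10:9726260-9726409: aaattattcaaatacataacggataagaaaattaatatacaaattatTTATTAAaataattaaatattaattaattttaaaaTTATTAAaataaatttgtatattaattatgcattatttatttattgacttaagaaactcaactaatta
MAP9 side, chr4:156225161-156225310: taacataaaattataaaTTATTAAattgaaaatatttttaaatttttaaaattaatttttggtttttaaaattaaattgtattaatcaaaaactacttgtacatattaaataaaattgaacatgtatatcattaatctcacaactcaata
EGFLAM intron, chr5:38442409-38442558: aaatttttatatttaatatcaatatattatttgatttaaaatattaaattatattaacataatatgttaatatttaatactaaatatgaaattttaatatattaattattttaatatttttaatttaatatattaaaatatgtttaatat

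These 4 windows held between 87.3% and 97.3% A/T, and 3 of the 4 had at least 1 consensus match. The EGFLAM window had none. Each was named for the protein-coding gene with the nearest start.

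The next 3 had the most consensus matches within 400 bp. Their matches lay close together, and the CRB1 window held 7 of them.
CRB1 intron, chr1:197422870-197423019: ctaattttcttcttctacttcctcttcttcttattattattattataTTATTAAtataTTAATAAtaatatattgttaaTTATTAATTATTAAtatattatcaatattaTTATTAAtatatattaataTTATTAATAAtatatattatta
CSNK1G1 intron, chr15:64570019-64570168: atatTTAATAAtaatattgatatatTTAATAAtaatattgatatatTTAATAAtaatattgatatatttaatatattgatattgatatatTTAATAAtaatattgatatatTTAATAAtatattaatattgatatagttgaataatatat
ADGRB3 side, chr6:68142673-68142822: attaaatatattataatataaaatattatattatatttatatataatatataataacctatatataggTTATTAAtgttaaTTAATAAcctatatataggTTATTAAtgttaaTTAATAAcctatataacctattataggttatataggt

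The last 2 had the largest fold enrichment among sites present in both construct lists, and were added after the values were seen. They held 78.7% and 78% A/T.
BRINP3 side, chr1:189272588-189272737: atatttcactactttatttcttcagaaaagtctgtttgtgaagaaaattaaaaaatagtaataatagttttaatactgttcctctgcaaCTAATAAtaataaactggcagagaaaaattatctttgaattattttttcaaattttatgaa
NLGN4X side, chrX:5017026-5017175: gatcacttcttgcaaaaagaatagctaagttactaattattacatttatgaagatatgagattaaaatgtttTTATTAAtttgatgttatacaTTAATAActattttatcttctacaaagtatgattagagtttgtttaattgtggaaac

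In the lists that chose them, the sites were weaker than those of all 3 lists. Their ICRF-193 fold enrichment ran from 1.83 to 16.3 with a median of 6.16, against 10.3 at sites of all 3 lists and 5.19 at sites found with ICRF-193 only. The camptothecin peak that overlapped them had a median of 5.12 (range 1.77 to 19.1), against 7.72 at sites of all 3 lists. Their median width was 349 bp. These values belong to the rule's own lists and are a description.

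At the edge of the rule, the sites nearest to an untreated peak lay 33, 57 and 63 bp from it. The sites with the smallest overlap with a camptothecin peak shared 26, 45 and 48 bp with it. The peaks left out by the smallest overlaps with an untreated peak shared 104, 110 and 115 bp with it. Most sites lay far from the edge: the median gap to an untreated peak was 24.7 kb, 3.95% of the sites had one within 1 kb, and 27.8% within 10 kb.

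The sites were A/T rich islands. In 200 bp at the peak midpoint they held 74.8% A/T (74.7 to 74.9, SD 4.41, n = 4604), and in flanks 1000 to 2000 bp away 64.1% (64.0 to 64.2, n = 4601). Of these, 97.8% (97.3 to 98.2) were richer in A/T than their own flanks. The genome held 59.1%. One site had no readable base in its window, and 4 had no readable flank. Sites of all 3 lists held 73.3% (73.2 to 73.4), sites of ICRF-193 only 73.6% (73.5 to 73.7), and sites of camptothecin only 72.0% (71.7 to 72.2). The sites shared by both drugs thus had the highest mean of the 4 classes, by a margin larger than the counting error and smaller than the SD among sites. The margin over sites of ICRF-193 only was small, absent or reversed within ranges of ICRF-193 fold enrichment, as given below.

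**Figure D1:**
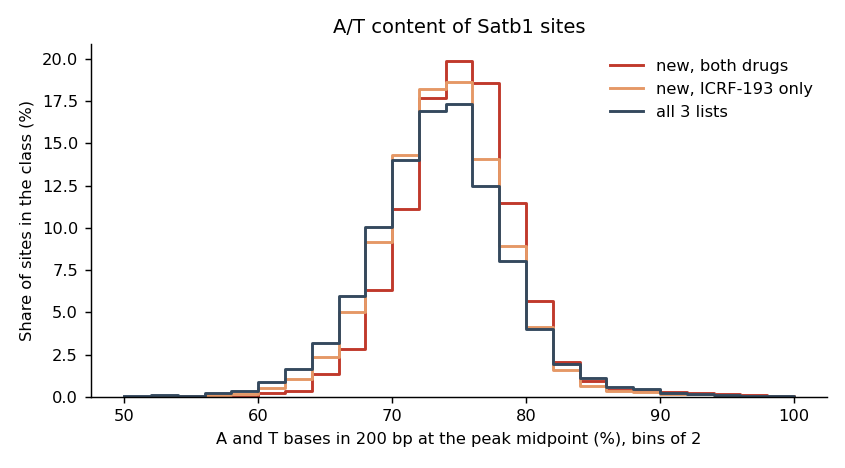
Share of sites (%) by their A and T content in 200 bp, in bins of 2 percentage points, for new sites of both drugs, new sites of ICRF-193 only and sites of all 3 lists. The 3 classes overlap over most of their range, and the new sites of both drugs sit slightly further right, with 18.6% of them between 76% and 78% A/T against 12.5% of the sites of all 3 lists.

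Within ranges of ICRF-193 fold enrichment the gap to sites of all 3 lists was wider. Between 5 and 7, the 2421 sites shared by both drugs held 74.3% A/T (74.2 to 74.5), and the 2802 sites of all 3 lists 70.7% (70.6 to 70.9). Between 7 and 10, the values were 76.5% (76.2 to 76.7) and 72.5% (72.4 to 72.6). At 10 or more, 159 sites held 80.6% (79.8 to 81.5), against 74.7% (74.6 to 74.8). This last range has no upper limit, and fold enrichment reached 16.3 at the shared sites and 86.6 at sites of all 3 lists. Sites of ICRF-193 only were close to the shared sites throughout. Under 5, both classes held 72.9%. Between 5 and 7, sites of ICRF-193 only held 73.9% (73.8 to 74.0), and between 7 and 10 76.5% (76.0 to 76.9, n = 621). At 10 or more they held 81.9% (79.2 to 84.7, n = 20). So mean A/T content rose with ICRF-193 fold enrichment, as a trend with wide scatter among single sites. Across the sites the Spearman correlation of both measures was 0.34 (n = 4604), and it was 0.36 across the 18308 sites of all 3 lists with a value. All fold enrichments used here share 1 library and its response to base composition. The classes also rest on peak calls in the untreated and camptothecin lists. The part of that choice in the gap between classes was not tested.

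Consensus matches were about as common at these sites as at other ICRF-193 peaks. In 400 bp at the midpoint, 95% (94.4 to 95.6) held at least 1 match, against 95.6% of all ICRF-193 peaks and 25.8% of consecutive 400 bp windows of the genome. The number of matches was lower than at sites of all 3 lists, with a mean of 2.34 (2.30 to 2.37, SD 1.21) against 2.88 (2.86 to 2.90). It was higher than at sites of ICRF-193 only, with 2.12 (2.10 to 2.14). At least 4 matches were present in 14.4% (13.4 to 15.4) of the sites, 28.1% (27.5 to 28.8) of the sites of all 3 lists, and 10.0% (9.46 to 10.6) of the sites of ICRF-193 only. At least 7 were present in 11 sites (0.239%), against 2.13% of the sites of all 3 lists.

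Within ranges of ICRF-193 fold enrichment the difference was smaller. At a fold enrichment between 5 and 7, the sites held 2.33 matches (2.28 to 2.37) and the sites of all 3 lists 2.40 (2.36 to 2.44), with intervals that overlap. At 10 or more, the values were 2.85 (2.60 to 3.10) and 3.23 (3.19 to 3.27). Strength was not equal in this last range, where fold enrichment reached 16.3 and 86.6. The 229 sites without a match had a median fold enrichment of 5.58, and the 11 sites with 7 or more had 9.29 and held 88.8% A/T on average. The correlation of match number with fold enrichment was 0.13 (n = 4605).

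The matches sat less often at the summit than at sites of all 3 lists. A match centre lay within 25 bp of the summit for 52.7% (51.3 to 54.2) of the sites, 68.6% (67.9 to 69.3) of the sites of all 3 lists and 51.2% (50.3 to 52.1) of the sites of ICRF-193 only. Neighbouring matches whose starts were 8 to 12 bp apart made up 6.55% (5.96 to 7.19) of 6377 neighbouring pairs, 10.8% (10.5 to 11.1) of those at sites of all 3 lists and 7.08% (6.65 to 7.52) at sites of ICRF-193 only. Starts 13 to 17 bp apart were fewer too, 5.72% (5.17 to 6.32) against 8.71% (8.42 to 9.01) at sites of all 3 lists, so the difference was not particular to one spacing. Among the 10753 matches at the sites, the all-A/T forms TTATTAA (27.0%) and TTAATAA (26.2%) were the most common. These forms are the same word read on opposite strands. They made up 25.1% and 24.5% at sites of all 3 lists, and 22.4% each of all matches in the genome. CTATTAG and CTAATAG, also the same word on opposite strands, were the least common forms at the sites, at 3.73% and 3.49%.

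Most of the sites were also peaks of the truncated constructs in untreated cells. The ∆HD list held 3005 of them, 65.3% (63.9 to 66.6), against 74.3% of all ICRF-193 peaks. The N-C1 list held 3575, 77.6% (76.4 to 78.8), against 83.9% of all ICRF-193 peaks. Both lists held 2820, 61.2% (59.8 to 62.6), against 72% of all ICRF-193 peaks, and 845 were in neither, 18.3% (17.2 to 19.5), against 13.7%. The N-C1 list alone held 755 (16.4%) and the ∆HD list alone 185 (4.02%), both larger shares than over all ICRF-193 peaks. At least 1 of the construct lists, both made without drug, thus held 81.7% (80.5 to 82.8) of the sites, a lower share than over all ICRF-193 peaks.

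The shares lay above those of sites of ICRF-193 only and below those of the ICRF-193 classes with an untreated peak. Of the sites of ICRF-193 only, 52.1% (51.2 to 53.0) were in the ∆HD list and 65.6% (64.7 to 66.5) in the N-C1 list. Of the sites of all 3 lists, 88.7% (88.2 to 89.1) and 95.3% (95 to 95.6) were. Of the 2839 ICRF-193 sites also in the untreated but not the camptothecin list, 87.2% (85.9 to 88.4) and 94.9% (94.0 to 95.6) were. Their median ICRF-193 fold enrichment was 5.97, against 6.16 at the sites shared by both drugs. The construct lists are longer than the untreated list, with 50537 and 62856 peaks against 22877, and covered 0.809% and 0.805% of the genome against 0.286%. Where the sites were present, their median fold enrichment was 6.69 in the ∆HD list and 6.39 in the N-C1 list, close to the medians of these lists (6.51 and 6.0).

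**Figure D2:**
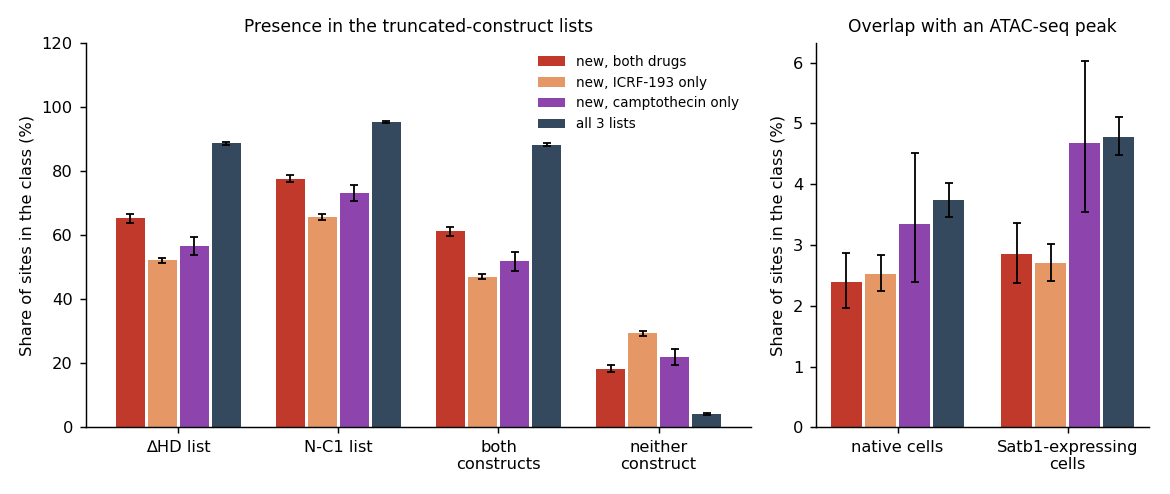
Share of sites (%) in each class that overlapped the ∆HD list, the N-C1 list, both or neither (left), and an ATAC-seq peak of native or Satb1-expressing cells (right), with exact 95% intervals for counting error. New sites of both drugs lie between the sites of ICRF-193 only and those of all 3 lists for both constructs, at 65.3% and 77.6%, and near 2% to 3% for both ATAC-seq lists.

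From 65% A/T upward, presence in the construct lists fell with A/T content. This pattern was noticed in these data and the ranges of A/T content were chosen afterwards. Of the sites with 65% to 70% A/T, 94.9% (92.5 to 96.8, n = 454) were in the N-C1 list. The share was 92% (90.7 to 93.2, n = 1790) at 70% to 75%, 73.3% (71.2 to 75.3, n = 1834) at 75% to 80%, and 26.9% (22.5 to 31.6, n = 383) at 80% to 85%. None of the 88 sites with 85% A/T or more was in either construct list, which allows a share of up to 4.11%. The ∆HD list followed the same order, from 86.3% (82.8 to 89.4) at 65% to 70% through 59.4% (57.1 to 61.7) at 75% to 80% to 19.8% (16.0 to 24.2) at 80% to 85%. The 55 sites under 65% A/T did not continue the order, with 87.3% (75.5 to 94.7) in the N-C1 list and 83.6% (71.2 to 92.2) in the ∆HD list.

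**Figure D3:**
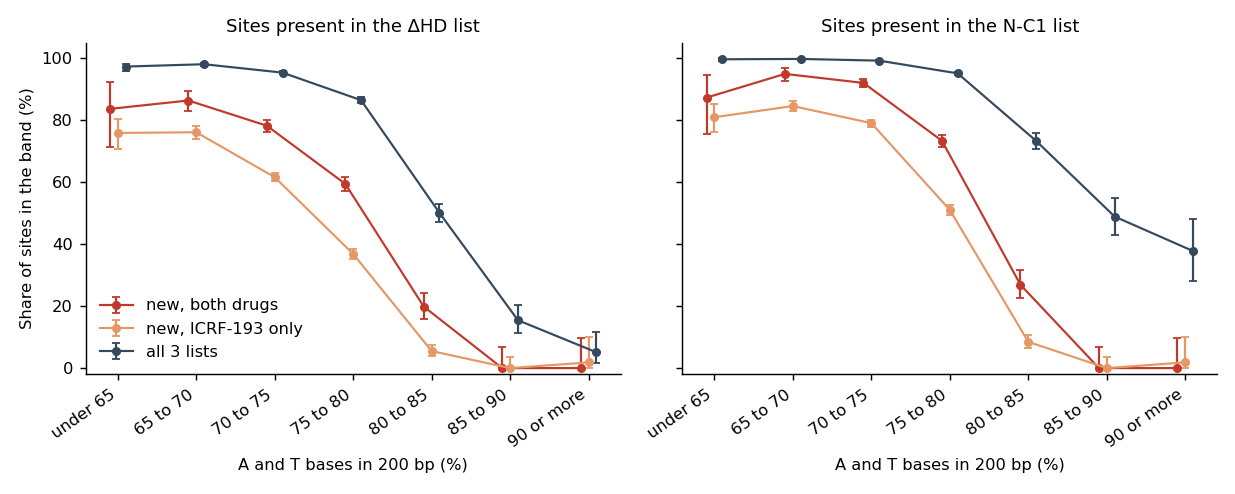
Share of sites (%) in each A/T range that were in the ∆HD list (left) or the N-C1 list (right), with exact 95% intervals for counting error, for 3 classes of ICRF-193 peaks. In both panels all 3 classes fall above 75% A/T, and new sites of both drugs reach 0 of 88 at 85% or more.

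The fall was not particular to the new sites. Of the sites of all 3 lists with 85% A/T or more, 12.7% (9.48 to 16.5, n = 370) were in the ∆HD list and 45.9% (40.8 to 51.2) in the N-C1 list, against 96.3% and 99.4% of those under 75%. Of the 156 sites of ICRF-193 only with 85% or more, 1 was in each construct list. The construct lists as a whole held few such peaks. Peaks with 85% A/T or more were 11 of 50521 in the ∆HD list (0.0218%) and 118 of 62836 in the N-C1 list (0.188%), against 375 of 22858 in the untreated full-length list (1.64%), 460 of 24459 in the camptothecin list (1.88%) and 617 of 37328 in the ICRF-193 list (1.65%). Mean A/T content was 69.8% over the ∆HD list, 70.9% over the N-C1 list, 72.4% over the untreated list, 73.5% over the camptothecin list and 73.3% over the ICRF-193 list. The part of the construct, the library and its base composition in this difference was not tested.

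At these sites, from a fold enrichment of 5 upward, presence in the construct lists also fell with peak strength, a value of a list that chose them. The 845 sites in neither construct list had a median ICRF-193 fold enrichment of 6.75, against 6.16 for the 2820 in both. At a fold enrichment of 10 or more, 49.7% (41.7 to 57.7, n = 159) were in neither list, against 14.5% (13.1 to 16.0) between 5 and 7. At sites of all 3 lists these shares were 5.14% (4.71 to 5.60) and 1.75% (1.30 to 2.31). Within one range of strength the A/T order remained: between 7 and 10, 25.1% (19.3 to 31.7, n = 203) of the sites with 80% A/T or more were in the N-C1 list and 91.6% (88.5 to 94.1, n = 406) of those under 75%. Match number was slightly higher at sites in neither list, 2.48 (2.38 to 2.57), than at those in both, 2.30 (2.26 to 2.35).

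The sites in neither list held 79.3% A/T (79.0 to 79.6) and those in both 73.4% (73.2 to 73.5), with flanks of 64.2% and 63.9%. Their longest uninterrupted run of A and T in 400 bp was 22 bp at the median, against 16 bp. Of the sites in neither list, 343 (40.6%) held 80% A/T or more, and of those in both 51 (1.81%).

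**Figure D4:**
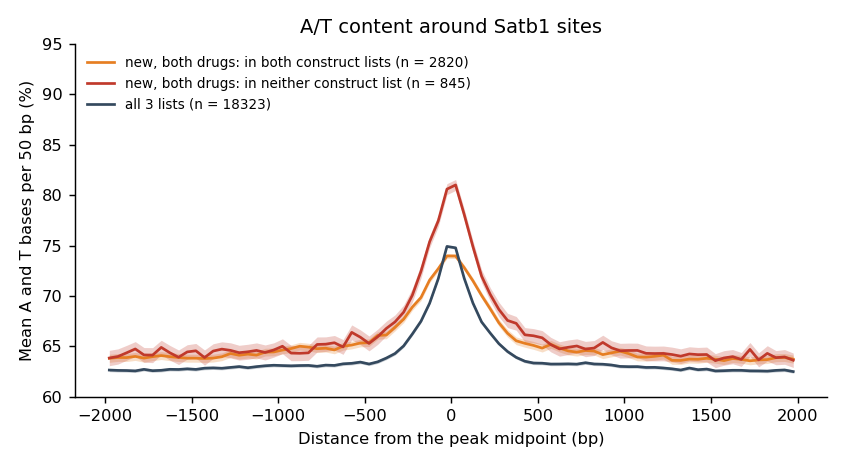
Mean A and T content (%) in bins of 50 bp by distance from the peak midpoint, with bands for 95% intervals across sites, for new sites of both drugs in both or neither construct list and for sites of all 3 lists. The sites in neither list peak near 81%, those in both near 74%, and both return to about 64% at 2000 bp.

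The strongest sites illustrate this split. Among the 5 with the largest ICRF-193 fold enrichment, chr4:168708877-168709353 had 15.3 in the ICRF-193 list and 6.82 in the camptothecin list, was intergenic, 305 kb from ANXA10, an annexin gene, and held 96.5% A/T. Another, chr10:9726105-9726559, had 14.9 and 5.19 and lay 1114 kb from CELF2, which encodes an RNA-binding splicing regulator. Both were in neither construct list and neither ATAC-seq list. The site chr4:156225002-156225620 had 14.7 and 8.09, was intergenic, 48.6 kb from MAP9, the gene of a microtubule-associated protein, and held 77.5% A/T. It was in the N-C1 list at 4.65, not in the ∆HD list, and open in both ATAC-seq lists.

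The site chr5:38442193-38442745 had 14.7 and 7.02 in an intron of EGFLAM, an extracellular matrix protein gene, 3.16 kb from a start. It held 94.5% A/T, lay in neither construct list and was open in both ATAC-seq lists. Of these 4 sites, 3 were in neither construct list and all 4 were stronger in their ICRF-193 list than the strongest site of both construct lists, chr1:189272258-189272894. That site had 13.2 in the ICRF-193 list, 5.74 in the camptothecin list, 9.53 in the ∆HD list and 7.43 in the N-C1 list, with 75.5% A/T, and lay 1171 kb from BRINP3. The next strongest of both construct lists, chrX:5016752-5017338, had 13, 8.99, 7.64 and 7.95 in the same order, held 77% A/T and lay 1052 kb from NLGN4X, a neuroligin gene.

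The 3 sites with the most consensus matches were in neither construct list. The site chr1:197422753-197423199, in an intron of the retinal polarity gene CRB1, held 13 matches in 400 bp and 94% A/T, with fold enrichments of 9.68 in the ICRF-193 list and 7.54 in the camptothecin list. The site chr15:64569565-64570338, in an intron of the casein kinase gene CSNK1G1 and of an overlapping gene, held 12 matches with 10.3 and 8.63. The site chr6:68142551-68142880, intergenic and 1202 kb from ADGRB3, an adhesion receptor gene, held 11 with 9.09 and 6.46. Its longest A/T run was 97 bp.

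Few of the sites were accessible. In native cells, 110 overlapped an ATAC-seq peak, 2.39% (1.97 to 2.87), against 3.2% of all ICRF-193 peaks. In cells expressing Satb1, 131 did, 2.84% (2.38 to 3.37), against 3.92%. Both lists held 91 of them. These lists covered 5.76% and 8.95% of the genome. Sites of ICRF-193 only had overlapping intervals, at 2.53% (2.25 to 2.83) and 2.70% (2.41 to 3.01), and sites of all 3 lists were more often open, at 3.74% (3.47 to 4.02) and 4.78% (4.48 to 5.10). Where the summit itself had to lie in an ATAC-seq peak, the shares of the sites fell to 1.04% and 1.48%.

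Open sites were most frequent among the least A/T rich ones. Under 65% A/T, 11 of 55 sites overlapped an ATAC-seq peak of Satb1-expressing cells, 20% (10.4 to 33.0), against 36 of 1790 between 70% and 75%, 2.01% (1.41 to 2.77). Of the 36 sites with 90% A/T or more, 4 did, 11.1% (3.11 to 26.1). Sites in both and in neither construct list were open at close shares: 79 of the 2820 sites in both lists (2.80%) and 25 of the 845 in neither (2.96%) were open in these cells. Among sites open in both ATAC-seq lists, the strongest were the MAP9 and EGFLAM sites given above and chr17:57863154-57863548, in an intron of the autophagy gene VMP1. The VMP1 site had 11.8 in the ICRF-193 list, 7.72 in the camptothecin list, 7.64 in the ∆HD list and 8.13 in the N-C1 list, with 76.5% A/T.

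Most sites lay outside genes and far from starts. By protein-coding transcripts, 64.2% (62.8 to 65.6) were intergenic, 34.5% (33.2 to 35.9) intronic, 1.09% (0.807 to 1.43) exonic and 0.195% (0.0894 to 0.371) at a promoter, defined as 1000 bp upstream to 100 bp downstream of a start. Over all ICRF-193 peaks these shares were 61.9%, 36.6%, 1.11% and 0.466%. Sites of all 3 lists were intergenic in 61.6% (60.9 to 62.3) and at a promoter in 0.518% (0.420 to 0.633). The median distance to a start was 158 kb, against 113 kb for sites of all 3 lists and 129 kb for sites of ICRF-193 only. More than 500 kb separated 26.7% (25.4 to 28) of the sites from a start, against 19.7% (19.2 to 20.3) and 21.3% (20.5 to 22.0) in these classes.

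Only 9 sites were at a promoter. None of them was in an ATAC-seq list, but 9 are too few to differ from the 2.39% and 2.84% of all the sites. The strongest, chr12:28604819-28605254, lay 0.39 kb from a start of CCDC91, a gene of Golgi transport, with 8.70 in the ICRF-193 list and 5.01 in the camptothecin list. It held 82.5% A/T and was in neither construct list. The second, chr1:54514008-54514322, lay 0.526 kb from a start of TMEM59, a transmembrane protein gene, with 7.92 and 5.37, held 68% A/T and was in both construct lists at 10.9 (∆HD) and 7.60 (N-C1). The third, chr6:55740670-55741023, lay 0.466 kb from a start of BMP5, a secreted growth factor gene, with 6.36 and 4.83, and was in both at 8.21 and 8.65. The other 6 were near OR2L2, CENPC, DMD, GTF3C3, DNAH14 and LZTFL1, with ICRF-193 fold enrichments from 4.80 to 5.99. Of all 9, 7 were in the N-C1 list and 6 in the ∆HD list, close to the 77.6% and 65.3% of all the sites.

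Exons held 50 sites. The strongest, chr6:96056858-96057406, lay in an untranslated part of MANEA, which encodes a Golgi mannosidase. It had 10.7 in the ICRF-193 list and 5.19 in the camptothecin list, and it was in both construct lists at 7.45 (∆HD) and 4.13 (N-C1).

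Genes that held a site were long ones. Of 20136 protein-coding genes, 1155 held a site in their body, 5.74%. The share was 0.152% of genes under 10 kb, 9.16% of those of 50 to 200 kb, and 59.9% of those of 500 kb or more. Per Mb of gene body the number also rose, from 0.362 under 10 kb to 1.96 at 500 kb or more, and sites of all 3 lists rose from 2.01 to 7.83.

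**Figure D5:**
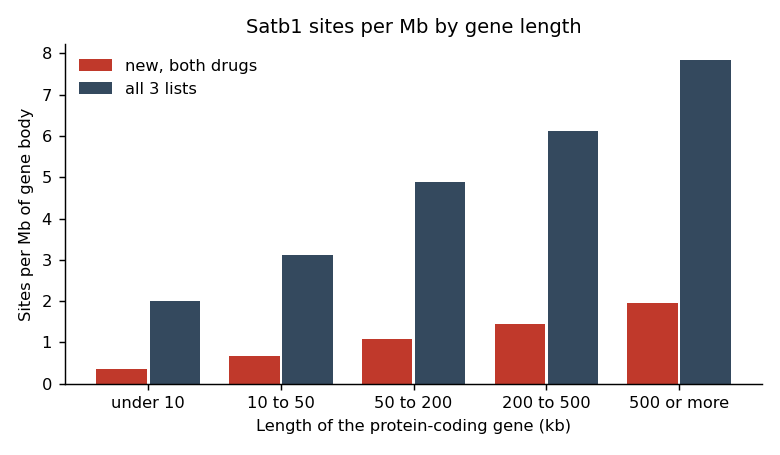
Sites per Mb of gene body by the length of the protein-coding gene (kb), for new sites of both drugs and sites of all 3 lists. Both rise with gene length, the new sites from 0.362 to 1.96 per Mb.

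Outside chromosome 8, the 10 genes with the most sites held between 8 and 13, all of them intronic. Among them were PTPRD with 13 (a receptor tyrosine phosphatase), EYS with 11 (a retinal matrix protein), GPATCH2 and NAALADL2 with 10 each, GPC5 (a glypican) and LRP1B (an LDL receptor family member) with 9 each, and STPG2 and CCSER1 with 8 each. Of these 8 genes, all but GPATCH2 were 959 kb or longer, at 4.74 to 8.34 sites per Mb. Each of the 10 also held sites of all 3 lists, between 7 and 32. In PTPRD, 11 of the 13 sites were in the N-C1 list and 9 in the ∆HD list. In LRP1B, all 9 were in the N-C1 list and 8 in the ∆HD list, and in GPC5 7 of 9 and 3 of 9 were. Over all the sites these shares were 77.6% and 65.3%, and a difference of single genes from them was not tested.

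GPATCH2 stood apart by density. This gene of a G-patch protein on chromosome 1 (217600334 to 217804432) is 204 kb long and held 49.0 of the sites per Mb. Beside its 10 sites it held 7 of all 3 lists and 5 of ICRF-193 only, and it was the only one of the 10 genes with more new sites of both drugs than sites of all 3 lists. Its sites had ICRF-193 fold enrichments from 4.34 to 8.70 and A/T contents from 70% to 78.5%. Of the 10, 8 were in the N-C1 list, 7 in the ∆HD list and none was open in Satb1-expressing cells. Over all the sites these shares were 77.6%, 65.3% and 2.84%. The nearest untreated peak to any of them was 682 bp away.

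Apart from the large synaptic and fragile-site genes and the type II cadherins, each list's interval included the 5.74% of all protein-coding genes. Some of these lists held no site. Of 36 large synaptic and fragile-site genes, 26 held a site, 72.2% (54.8 to 85.8), at 2.38 sites per Mb against 1.28 over all genes, with a median gene length of 1322 kb. The 59.9% and 1.96 per Mb of all genes of 500 kb or more are the nearer reference for genes of this length, and the first lies inside the list's interval. Every one of the 36 held a site of all 3 lists. Of 13 type II cadherins, which are cell adhesion genes, 4 held a site, 30.8% (9.09 to 61.4): CDH18 with 6, CDH12 and CDH20 with 2 each, and CDH19 with 1. Their median length is 158 kb, and of all genes of 50 to 200 kb 9.16% held a site, which also lies inside that interval. Among 14 ERBB receptors and ligands, ERBB4 held 3 and NRG3 1, so 14.3% (1.78 to 42.8) of the list held a site, at 1.26 per Mb.

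Among 22 genes of topoisomerases, condensin and cohesin, 3 held a site, 13.6% (2.91 to 34.9), an interval that holds the share of all genes. TOP2A, the topoisomerase II gene of dividing cells and a target of ICRF-193, held 1 in an intron (chr17:38569220-38569480), 4.63 kb from a start, and no site of all 3 lists or of ICRF-193 only. Its fold enrichment was 4.60 in the ICRF-193 list, 4.83 in the camptothecin list, 5.18 in the ∆HD list and 6.04 in the N-C1 list, so it was a peak of both constructs without drug. STAG1, a cohesin subunit gene, held 2 and NIPBL, the cohesin loader gene, 1.

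Mammary lineage genes were not distinguishable from the 5.74% of all protein-coding genes at these list sizes. Of 18 basal mammary genes, none held a site (0 of 18, interval up to 18.5%), and 9 of them held a site of all 3 lists. Of 17 luminal genes, ESR1, the estrogen receptor, held 1 at 5.35 in the ICRF-193 list and 4.80 in the camptothecin list, in neither construct list, which makes 5.88% (0.149 to 28.7) of the list. Of 20 genes of the epithelial to mesenchymal transition, ZEB2 and CDH2 held 1 each, both in both construct lists, which makes 10% (1.23 to 31.7). Neither the 54 ribosomal protein genes nor the 19 immediate early genes held a site, of this class or of all 3 lists. These genes are short, with medians of 5.60 and 7.17 kb, and of all genes under 10 kb 0.152% held a site of this class.

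Along the chromosomes the sites were uneven. Chromosome 4 held 2.75 per Mb and chromosome 13 2.47, whereas chromosomes 19 and 22 held 0.186 and 0.136. Sites of all 3 lists had a like range, with 8.54, 8.73, 1.76 and 1.40 per Mb on the same chromosomes. Outside chromosome 8, the 3 densest 1 Mb windows were all on the long arm of chromosome 1. The window chr1:189000001-190000000 held 22 of the sites and 34 sites of all 3 lists. The windows chr1:191000001-192000000 and chr1:194000001-195000000 held 19 and 18, beside 32 and 25 of all 3 lists. Chromosome 1 as a whole held 12% of the sites, 9.97% of the sites of all 3 lists and 10.1% of the sites of ICRF-193 only.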

How the data were processed

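Satb1 ChIP-seq and ATAC-seq peak lists of MCF10A were used, 7 of the 10 deposited lists (the 3 mouse lists were not used here), 1 per condition. The other 13 of the 20 samples were not analysed here. Samples were grouped by their labels.

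Reads were cut with cutadapt and mapped to hg19 with Bowtie2 by the authors, who used MACS2 for the peaks (input DNA as the ChIP-seq control, broad peaks for ATAC-seq). Versions of aligner and caller are not given in the sources used here, nor is pooling of duplicates. Fold enrichment, as deposited, is the authors' ratio of pileup to local background. Each peak also has the −log10 p-value and a −log10 q-value as deposited by the authors, and a deposited score that follows the q-value. A list holds no read totals, so its depth is unknown, and values of different lists were set side by side without a ratio.

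Overlap meant at least 1 bp. YTAWTAR was searched as exact matches, overlapping ones counted, in 400 bp at the midpoint. A/T content covered 200 bp. The feature at the summit was read from protein-coding transcripts of GENCODE on GRCh37, which is hg19. Gene list names matched for 213 of 216 genes. The sites and lists were chosen with earlier results of these data known.

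Named, chromosome 8 left out: the 5 sites of largest ICRF-193 fold enrichment, the 3 with most matches, the 3 strongest at promoters, in exons, in both ATAC-seq lists and in neither construct list, the 10 genes with most sites, up to 5 genes per list, and sites at the edge of the rule. Some genes and sites that this rule named are not reported here. The other 6 promoter genes, the GPATCH2 and TOP2A details and the densest windows were picked after their values were seen. Self-tests on simulated intervals and planted motifs, 1500 and 900, showed 0 differences from bedtools or the planted positions. Alternatives covered overlap rules, thresholds, windows, the consensus and the annotation. Overlaps were checked with bedtools 2.31.1, sequence was read with samtools 1.23.1 and pysam 0.24.0, and values were computed in Python 3.11.15 with pandas 2.3.3, scipy 1.17.1 and numpy 2.4.6.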

Additional observations from a re-analysis of the deposited data

How the results depend on the processing

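Of the values recomputed under alternatives, 40 stayed within their interval (for the number of sites, within 1.5 times) and 26 did not. A reciprocal 50% overlap with the camptothecin peak (4420 sites), an untreated peak no nearer than 1000 bp (4423) and members taken from the camptothecin list (4646) moved none of the values beyond these limits. Drug peaks with a fold enrichment of at least 5 left 2455 sites, with 2.08% open in Satb1-expressing cells, 96.3% with a match, 2.45 matches and 75.6% A/T. Accessibility moved to 1.93% in native and 2.08% in Satb1-expressing cells with ATAC-seq peaks of −log10 q of at least 5. It was 1.04% and 1.48% both with the summit inside the peak and with 50% of the site covered. A reciprocal 50% overlap with the construct peak gave 61.1% in the ∆HD list, 73.7% in the N-C1 list and 55.9% in both, and construct peaks with a fold enrichment of at least 5 gave 56.3%, 62.0% and 47.3%. In 150 bp, 78.8% of the sites held a match, with a mean of 1.36, and CTAATAR on either strand gave 56.0% and 0.731. A/T content was 75.6% in 100 bp and 73.2% in 400 bp. With transcripts of every type, 45.1% were intergenic. The share of sites with 80% A/T or more in the N-C1 list, a result and a set of alternatives chosen after seeing the data, was 21.9% (103 of 471), 5.77% (6 of 104) with A/T over 400 bp and 48.2% (509 of 1055) over 100 bp. It was 22.1% among sites with a fold enrichment of at least 7 and among those with 2 or more matches. No paired analysis was possible because there was 1 list per condition and no test. The lists hold no depth, which limits every statement that a site was absent.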
